A study of Mus musculus with 6 samples.

Results

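Transcript levels of the NCoR and Hdac3 corepressor complex were examined in mouse embryonic stem (mES) cells. The set held 7 genes, *Ncor1*, *Hdac3*, *Tbl1x*, *Tbl1xr1*, *Gps2*, *Hdac1* and *Hdac2*, chosen by name because Dzip3 has been reported to act with this corepressor. All 7 were present among the 16668 gene symbols listed for every library, and all 7 passed the filter on low values (an average of 0.5 RPKM or more across libraries), which left 11538 genes. RPKM is a read number divided by exon length and by the depth of the library. A comparison of levels between genes therefore depends on the length used and on which reads could be assigned.

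RNA-seq was carried out on E14 cells, a feeder-independent mES line of strain 129/Ola at passage 3-5, grown on gelatin in N2B27 medium with the inhibitors PD0325901 and CHIR99021 (2i) and LIF, and collected 72 h after siRNA transfection. The 6 libraries were labelled as 3 groups of 2: control (control siRNA), Ring1B-KD (siRNA against *Rnf2*, which encodes the H2A ubiquitin ligase Ring1B) and Dzip3-KD (siRNA against *Dzip3*, which encodes another H2A ubiquitin ligase). All groups share the line, the medium and the transfection, and a knockdown lowers a transcript without deleting the gene. The study calls the libraries of a group biological duplicates, while the labels do not say that they came from separate cultures, and p-values measure the spread between these libraries.

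The names of the deposited files carry a number from 1 to 6 and a condition word, and the word differed from the sample label for 4 of the 6 libraries. The library labelled control 1 had the word control, and the library labelled control 2 had the word Ring1BKD. For the label Ring1B-KD, replicates 1 and 2 had the words Dzip3KD and control. For the label Dzip3-KD, they had the words Ring1BKD and Dzip3KD. File numbers 1 to 3 (control 1, control 2 and Ring1B-KD 1 by label) are called file set 1 here and numbers 4 to 6 (Ring1B-KD 2, Dzip3-KD 1 and Dzip3-KD 2) file set 2, so each set held each word once. Both comparisons are given below, with the label of each library.

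NCoR1 is a large scaffold protein that unliganded nuclear receptors and other transcriptional repressors bind. It holds the histone deacetylase Hdac3 and turns on its activity, and the WD40 proteins Tbl1x and Tblr1 (encoded by *Tbl1xr1*) and the small subunit Gps2 complete the core complex. Hdac1 and Hdac2 are closely related deacetylases that work mainly in the Sin3, NuRD, CoREST and MiDAC complexes, and in ES cells deacetylase complexes of both kinds take part in keeping lineage genes silent.

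Some members resemble each other or other places in the genome, and this bears on which reads can be assigned to them, since only reads placed uniquely were counted and 1 mismatch was allowed. The coding sequences of *Tbl1x* and *Tbl1xr1* (GENCODE M1 on mm9) were 77.5% identical over 1542 aligned bases, but their longest run without a difference was 20 bases. Their most alike stretch of 90 bases is shown because the levels of these paralogs are compared below. It spans coding bases 1087 to 1176 of *Tbl1x* and 1048 to 1137 of *Tbl1xr1*, and the 13 differences are in capitals.
Tbl1x: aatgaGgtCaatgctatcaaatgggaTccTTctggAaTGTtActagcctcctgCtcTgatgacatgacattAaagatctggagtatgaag
Tbl1xr1: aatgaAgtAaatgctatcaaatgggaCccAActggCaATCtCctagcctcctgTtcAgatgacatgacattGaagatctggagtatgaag

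*Hdac1* and *Hdac2* were 75.9% identical over 1446 aligned coding bases, with a longest identical run of 17 bases, far shorter than the windows of 50 bases used below. *Hdac1* has a second kind of relative. A copy lacking introns lies on the plus strand of chromosome 17 (mm9 78890879 to 78892881) and is 98.75% identical to the *Hdac1* transcript over 2004 aligned bases. GENCODE M1 annotates it as *Gm10093*, a protein-coding gene, and RefSeq as the pseudogene *Hdac1-ps*, and neither symbol is listed in the files. In the coding region, 9 of 1449 bases differ, without a gap. The 90 base window with the most differences within the coding region is shown. Among coding windows, it is where reads of the gene and of this copy are easiest to separate. It covers coding bases 393 to 482 of *Hdac1*, the copy is read from chr17:78891314-78891403 (mm9, plus strand), and capitals in these 2 sequences mark the 6 differences. Counted from 1 at the first coding base, with the base of *Hdac1* first, they are C408T, T441A, A460G, C465T, C472T and T482C. The same stretch of *Hdac2* (coding bases 396 to 485) differs from *Hdac1* at 20 bases, which are in capitals in its own line.
Hdac1: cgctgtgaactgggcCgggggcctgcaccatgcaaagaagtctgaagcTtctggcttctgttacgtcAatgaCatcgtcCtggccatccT
Hdac1 copy on chromosome 17: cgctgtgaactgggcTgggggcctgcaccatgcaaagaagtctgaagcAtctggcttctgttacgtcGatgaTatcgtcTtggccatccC
Hdac2: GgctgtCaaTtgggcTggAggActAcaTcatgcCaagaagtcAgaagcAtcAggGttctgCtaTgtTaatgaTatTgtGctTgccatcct

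Across the whole *Hdac1* transcript, 87.3% of windows of 50 bases occurred elsewhere in mm9 with at most 1 mismatch, and 76.3% occurred elsewhere exactly. The share was 15.4% for *Gps2*, which has a copy 91.3% identical over 1210 bases on chromosome 16 (65793454 to 65794658), and 7.14% for *Ncor1*, which matches the pseudogene *Gm6743* on chromosome X. It was 1.2% for *Tbl1xr1* and 0% for *Hdac3*, *Tbl1x* and *Hdac2*. Whether *Hdac1* reads came from the copies or were left out as not unique cannot be told from the values, and its level is uncertain. The read length was not given in the sources used here. With windows of 75 bases the share for *Hdac1* was still 79%.

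**Figure D1:**
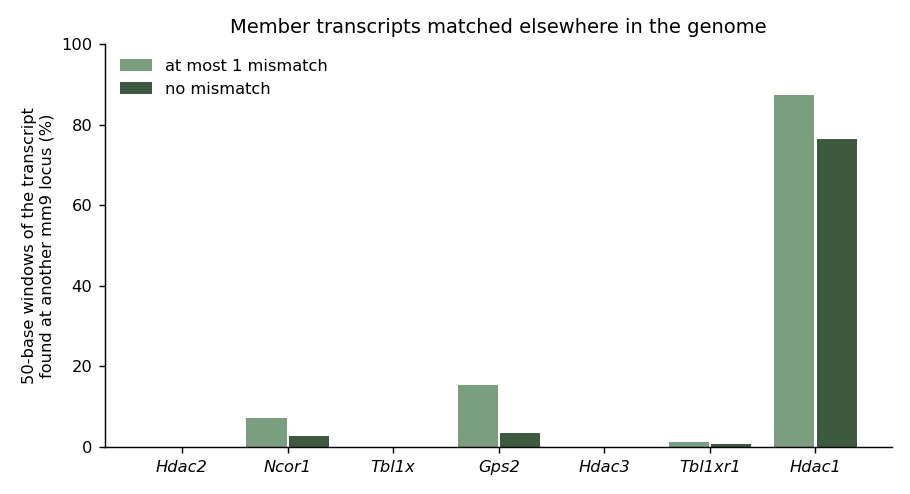
Bars give the share of the windows of 50 bases of each member transcript (percent, y axis) found at another locus of mm9, with at most 1 mismatch (light) or none (dark). *Hdac1* stands apart at 87.3% and 76.3%, followed by *Gps2* at 15.4% and 3.57%, and *Hdac3*, *Tbl1x* and *Hdac2* are at 0%.

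Depth and identity of the libraries were checked first. Each library held 3015350 to 3583613 mapped reads, recovered from the steps between low RPKM values, and 3 reads on a transcript of 2 kb correspond to 0.419 to 0.498 RPKM. Fewer reads, 964753 to 1142786 per library, were recovered in the listed genes. No pair of libraries agreed within sampling noise (median squared difference 1.47 to 4.13 times that of sampling). The closest pair was Ring1B-KD 2 and Dzip3-KD 2 by label, both of file set 2. By label, *Rnf2* was at 30.6 and 20.4 RPKM (control), 26.8 and 28.8 RPKM (Ring1B-KD) and 19.4 and 28.2 RPKM (Dzip3-KD), so the label Ring1B-KD did not go with lower *Rnf2* while both libraries with the word Ring1BKD were the lowest. *Dzip3* was at 2.24 and 2.68, 1.18 and 1.89, and 1.70 and 1.31 RPKM in the same order, lowest in both libraries with the word Dzip3KD, on 23 to 53 reads. Neither targeted gene passed the threshold in any comparison. All 8 ES cell markers were listed in each library, with a summed level of 1380 to 1805 RPKM, whereas 3 of 6 fibroblast markers were listed and summed to at most 0.417 RPKM. Of 4 primitive endoderm markers, summed at 0.32 to 0.952 RPKM, and of 3 listed trophectoderm markers, at 0 to 0.929 RPKM, 3 and 2 were under 0.5 RPKM everywhere. Neural markers summed to 14.9 to 33.1 RPKM, and their part in the results below was not tested.

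Levels were ranked by the mean over the 6 libraries. They depend on the exon lengths the authors used, and the length recovered from the values equals an annotated GENCODE M1 transcript for *Gps2* and *Tbl1xr1* but not for the other 5 members (2302 bp for *Tbl1x*, for example, beside an annotated transcript of 5234 bp). *Hdac2* was the highest member, with 39.0 ± 6.25 RPKM (SD, n = 6), and *Ncor1* followed with 15.6 ± 2.75 RPKM (SD, n = 6). The remaining members lay close together, at 7.49 ± 1.64 RPKM for *Tbl1x*, 6.30 ± 2.24 RPKM for *Gps2*, 6.13 ± 1.15 RPKM for *Hdac3*, 5.35 ± 1.21 RPKM for *Tbl1xr1* and 4.72 ± 1.26 RPKM for *Hdac1* (SD, n = 6 each). Among all listed genes the mean of *Hdac2* stood at the 96.8th percentile and that of *Hdac1*, the lowest member, at the 65.6th. With 87.3% of its windows of 50 bases found elsewhere in mm9, the rank of *Hdac1* is as uncertain as its level. The partners NCoR1 and Hdac3, which form the catalytic unit together, had unequal transcript levels, with *Ncor1* 1.72 to 3.88 times as high as *Hdac3*.

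*Hdac2* ranked first and *Ncor1* second in 6 of 6 libraries, and their ranges did not touch each other or those of the members below. *Hdac2* exceeded *Ncor1* by 1.28 ± 0.11 and *Ncor1* exceeded *Tbl1x* by 0.97 ± 0.14 on the log2(RPKM + 1) scale (SD, n = 6). Each had an exact paired permutation p of 0.0313 (two-sided), the smallest that 6 libraries allow, and 0.0938 after adjustment over the 6 neighbouring pairs. The pairs were set by ranking these same values, and the libraries belong to different groups, so the p-values here are a description and no test of the order. The order below *Ncor1* was not fixed. *Tbl1x* was above *Gps2* in 5 of 6 libraries (adjusted exact p = 0.125) and *Hdac3* above *Tbl1xr1* in 5 of 6 (adjusted exact p = 0.141). *Gps2* was above *Hdac3* in 2 of 6 (adjusted exact p = 1) and *Tbl1xr1* above *Hdac1* in 4 of 6 (adjusted exact p = 0.638), so the order of these neighbours varied between libraries. In single libraries *Gps2* and *Tbl1xr1* each took every rank from 3 to 7, *Tbl1x* ranks 3 to 5, *Hdac3* ranks 3 to 6 and *Hdac1* ranks 5 to 7.

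**Figure D2:**
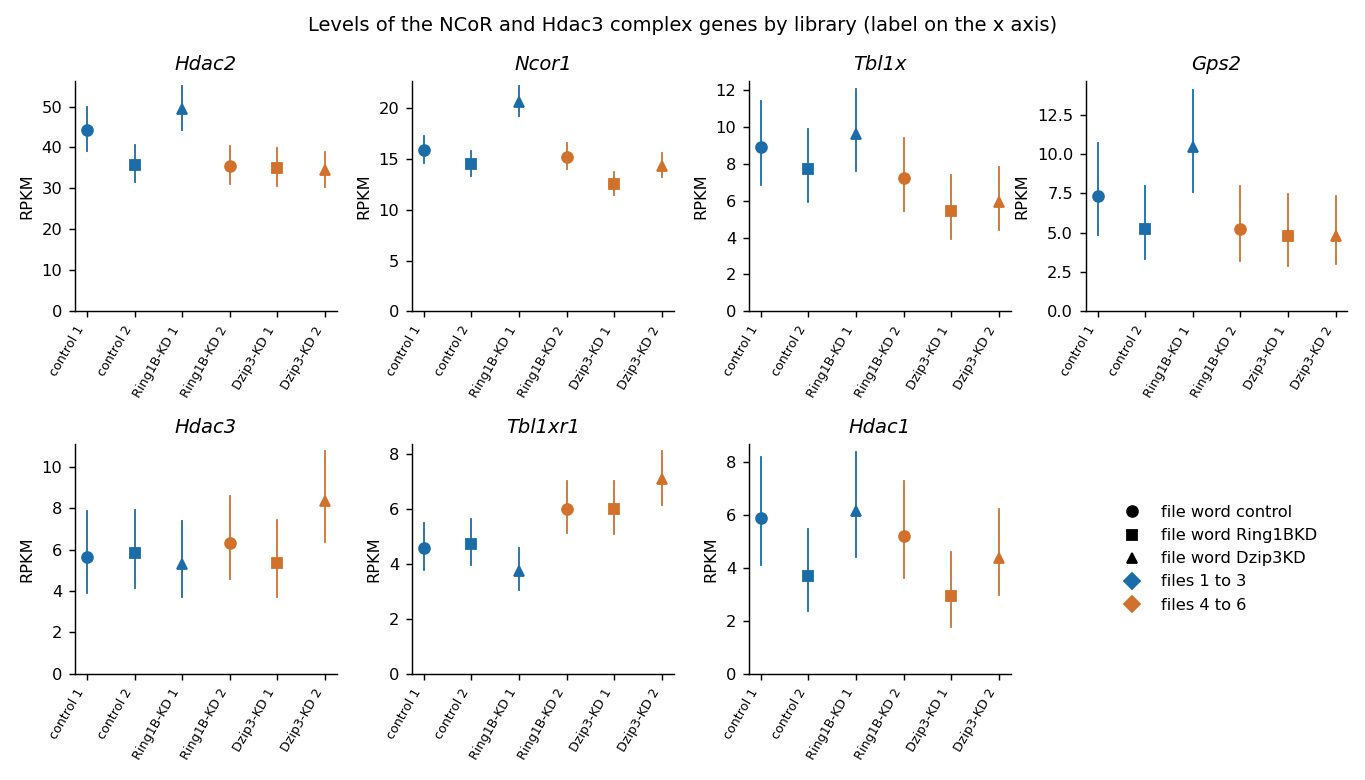
RPKM (linear y axes from 0, a separate scale in each panel) of each member in the 6 libraries, named by label, with the shape of a point for the file word, its colour for the file set and bars for the 95% Poisson interval, which covers counting error only. *Hdac2* (34.4 to 49.4) and *Ncor1* (12.6 to 20.7) have higher values than the other 5 members, which lie between 2.95 and 10.4.

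*Ncor1*, the scaffold (chromosome 11, 62129928 to 62272043, minus strand; mm9 here and below), was at 15.9 and 14.5 RPKM in replicates 1 and 2 of control, 20.7 and 15.3 RPKM in Ring1B-KD, and 12.6 and 14.4 RPKM in Dzip3-KD by label. Its 457 to 777 reads were the most of any member, so counting error was small. The library labelled Ring1B-KD 1 was the highest and Dzip3-KD 1 the lowest, with both Dzip3-KD libraries below both controls. By label, *Ncor1* differed from control by 0.21 (SE 0.20) in Ring1B-KD and -0.17 (SE 0.20) in Dzip3-KD on the log2(RPKM + 1) scale, the scale of every difference below (limma, adjusted p = 0.937 and 0.734). By file word the difference was -0.19 (SE 0.16) for Ring1BKD and 0.14 for Dzip3KD (limma, adjusted p = 0.773 and 0.893).

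*Hdac3*, the deacetylase of the complex (chromosome 18, 38095498 to 38114642, minus strand), was at 5.62 and 5.82 RPKM in control, 5.32 and 6.34 RPKM in Ring1B-KD, and 5.34 and 8.35 RPKM in Dzip3-KD by label. Its reads numbered 34 to 60, and 5 libraries lay within 5.32 to 6.34 RPKM, with the library labelled Dzip3-KD 2 above them. The groups overlapped in both label comparisons. *Hdac3* varied least against counting error of the 7, with a variance of 1.5 times that of sampling alone, against a median of 2.44 over 7675 genes with at least 20 reads on average. Its differences were 0.02 (Ring1B-KD, SE 0.23) and 0.20 (Dzip3-KD, SE 0.23) by label, and -0.08 (Ring1BKD, SE 0.20) and 0.14 (Dzip3KD) by file word, with limma adjusted p-values of 0.999, 0.731, 0.933 and 0.913.

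The WD40 subunits help to bring in the ubiquitin system when corepressors are exchanged for coactivators. *Tbl1x* (chromosome X, 74756352 to 74908322, plus strand) was at 8.93 and 7.73 RPKM in control, 9.66 and 7.23 RPKM in Ring1B-KD, and 5.45 and 5.94 RPKM in Dzip3-KD by label, on 41 to 75 reads. Both libraries labelled Dzip3-KD were lower than the other 4. Their difference from control was -0.48 (SE 0.20), with a limma unadjusted p of 0.0452 and an adjusted p of 0.404. With file set as a block it was -0.10 (limma adjusted p = 0.978), where the set effect rests on the libraries labelled Ring1B-KD alone. In Ring1B-KD by label the difference was 0.01 (SE 0.20; limma adjusted p = 1). By file word it was -0.27 (SE 0.17) for Ring1BKD and -0.07 for Dzip3KD (limma, adjusted p = 0.683 and 0.956).

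*Tbl1xr1* (chromosome 3, 21975574 to 22115516, plus strand) was at 4.57 and 4.74 RPKM in control, 3.76 and 5.99 RPKM in Ring1B-KD, and 5.99 and 7.07 RPKM in Dzip3-KD by label, on 103 to 206 reads. Its levels in Ring1B-KD 2 and in both replicates of Dzip3-KD were above either control, and that in Ring1B-KD 1 was below. In Dzip3-KD the difference was 0.41 (SE 0.23; limma adjusted p = 0.490), and -0.15 with file set as a block (limma adjusted p = 0.964). In Ring1B-KD it was 0.03 (SE 0.23; limma adjusted p = 0.994). By file word the differences were 0.02 for Ring1BKD and -0.01 for Dzip3KD.

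*Gps2*, a small subunit that binds NCoR1 and Tbl1 proteins (chromosome 11, 69727390 to 69730093, plus strand), was at 7.34 and 5.26 RPKM in control, 10.4 and 5.21 RPKM in Ring1B-KD, and 4.77 and 4.80 RPKM in Dzip3-KD by label. It had 19 to 43 reads, and the 95% Poisson interval of the highest library (7.56 to 14.1 RPKM, counting error only) lay above the estimates of the other 5. In Dzip3-KD both values lay under the lower control, with a difference of -0.32 (SE 0.29; limma adjusted p = 0.656). The Ring1B-KD difference by label, 0.22 (SE 0.29; limma adjusted p = 0.955), rested on 1 library. Without the library labelled Ring1B-KD 1 it was -0.22.

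*Hdac1* (chromosome 4, 129193348 to 129219957, minus strand) was at 5.89 and 3.70 RPKM in control, 6.17 and 5.22 RPKM in Ring1B-KD, and 2.95 and 4.39 RPKM in Dzip3-KD by label, on 19 to 41 reads. Its copies elsewhere in the genome, given above, make these levels uncertain. The 2 lowest libraries were control 2 and Dzip3-KD 1 by label, which are both of the libraries with the file word Ring1BKD and also the 2 lowest for *Rnf2*. Differences by label were 0.23 (SE 0.26) in Ring1B-KD and -0.30 (SE 0.26) in Dzip3-KD (limma, adjusted p = 0.944 and 0.631). By file word, *Hdac1* averaged 3.32 RPKM in Ring1BKD and 5.55 RPKM in control, a difference of -0.60 (SE 0.17, 95% interval -1.0 to -0.20). Its unadjusted limma p was 0.00828 and the adjusted p 0.377. Within file set 1 the difference was -0.55 and within file set 2 it was -0.65. Leaving out any 1 library kept it between -0.69 and -0.51, and over 14 alternatives the adjusted p ranged from 0.247 to 1.

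*Hdac2* (chromosome 10, 36694350 to 36721695, plus strand) was at 44.2 and 35.8 RPKM in control, 49.4 and 35.5 RPKM in Ring1B-KD, and 35.0 and 34.4 RPKM in Dzip3-KD by label, on 229 to 334 reads. The libraries labelled control 1 and Ring1B-KD 1 were high and the other 4 lay within 34.4 to 35.8 RPKM. Differences from control were 0.07 (Ring1B-KD, SE 0.20) and -0.19 (Dzip3-KD, SE 0.20) by label (limma, adjusted p = 0.985 and 0.703), and -0.16 (Ring1BKD, SE 0.15) and 0.06 (Dzip3KD) by file word. The ratio of *Hdac2* to *Hdac1* ranged from 6.80 to 11.8, with the 2 highest ratios in the libraries with the word Ring1BKD. The *Hdac1* copies apply to this ratio as well.

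Taking the members together by label, none of the 7 lay outside the control range in both Ring1B-KD libraries, where 14.9% of all tested genes were above and 18.9% below both controls. Limma called 0 of 7 members at an adjusted p under 0.05, and 0 at an unadjusted p under 0.05 (5.1% of all genes). In the libraries labelled Dzip3-KD, 4 of 7 members (*Ncor1*, *Tbl1x*, *Gps2* and *Hdac2*) were below both controls, against 30.3% of all genes, and 1 (*Tbl1xr1*) was above, against 20.4%. For each of the 4, the higher Dzip3-KD value lay inside the 95% Poisson interval of control 2, the lower control. For *Ncor1* it was 14.4 within 13.4 to 15.8 RPKM, and for *Tbl1x* only just, 5.94 beside a lower end of 5.91 RPKM. Both *Tbl1xr1* values lay above the intervals of the controls (upper ends 5.499 and 5.615 RPKM). With file set as a block, the differences of *Ncor1* (0.25), *Gps2* (0.56), *Hdac2* (0.27) and *Tbl1xr1* (-0.15) had the opposite sign. The block rests on the libraries labelled Ring1B-KD 1 and Ring1B-KD 2 alone, which also differ in file word. Without the block, limma called 0 of 7 after adjustment and 1, *Tbl1x*, before it (12.2% of all genes). Median differences of the members were 0.07 for Ring1B-KD and -0.19 for Dzip3-KD, beside -0.02 and -0.07 over all tested genes. After scaling to a common 75th percentile they were 0.09 and -0.12, beside -0.0006 and -0.007 over all tested genes. Both comparisons share the control libraries. Over all genes limma called 0 in either of them after adjustment, and the voom fit on recovered reads called 0 as well. Of the unadjusted calls over all genes, 589 were in Ring1B-KD and 1411 in Dzip3-KD.

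**Figure D3:**
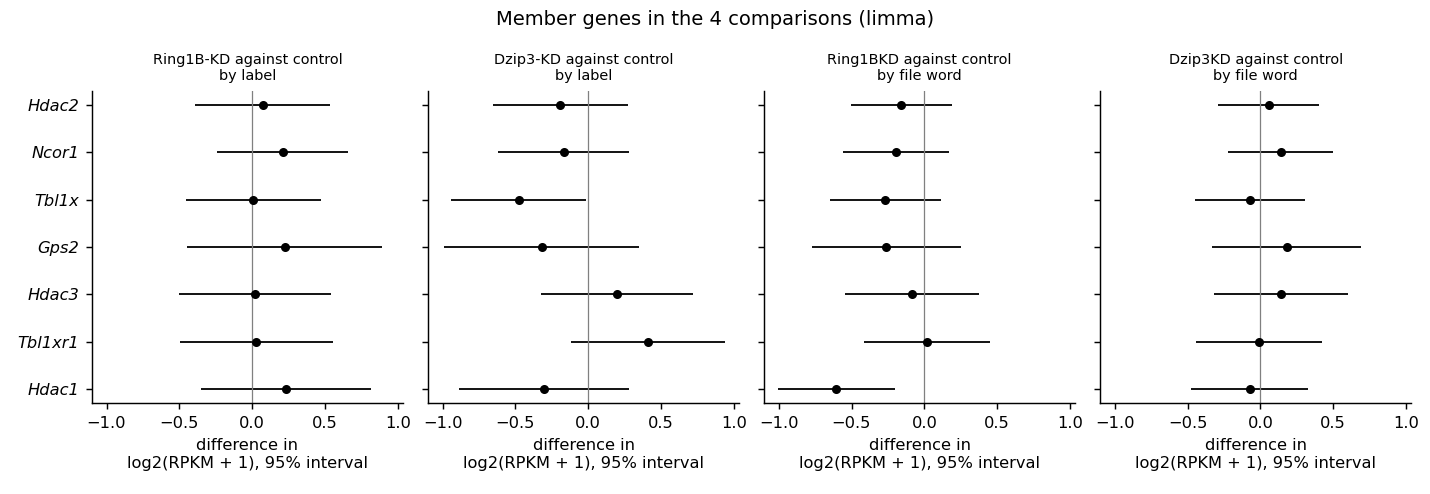
Points give the difference from control in log2(RPKM + 1) (x axis) for each member in the 2 comparisons by label and the 2 by file word, and bars the 95% interval from limma. The intervals of *Tbl1x* in Dzip3-KD by label and of *Hdac1* in Ring1BKD by file word lie below 0, and the others include 0.

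By file word, with file set as a block, 5 of 7 members (*Ncor1*, *Tbl1x*, *Gps2*, *Hdac1* and *Hdac2*) were lower in Ring1BKD than in control within both sets, against 40.6% of all tested genes, and 0 were higher within both, against 18.5%. Limma called 0 of 7 after adjustment (0.416% of all genes, or 48) and 1, *Hdac1*, before it (8.31%). Voom on the recovered reads also called 0 members. The members' median was -0.19, beside -0.08 over all genes, and after scaling to a common 75th percentile these were -0.10 and 0.00. For Dzip3KD by file word, the differences of 7 of 7 members had opposite signs in the 2 sets. Over all genes, 22.3% were higher and 29.5% lower within both, and all the remaining genes were, like the members, neither. *Gps2* gave 0.46 within set 1 and -0.10 within set 2, *Ncor1* 0.36 and -0.08, and *Hdac3* -0.07 and 0.35. Limma called 0 of 7 members and 0 genes after adjustment in that comparison, and 0 of 7 members at an unadjusted p under 0.05 (6.52% of all genes), while voom called 1 gene, not a member.

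**Figure D4:**
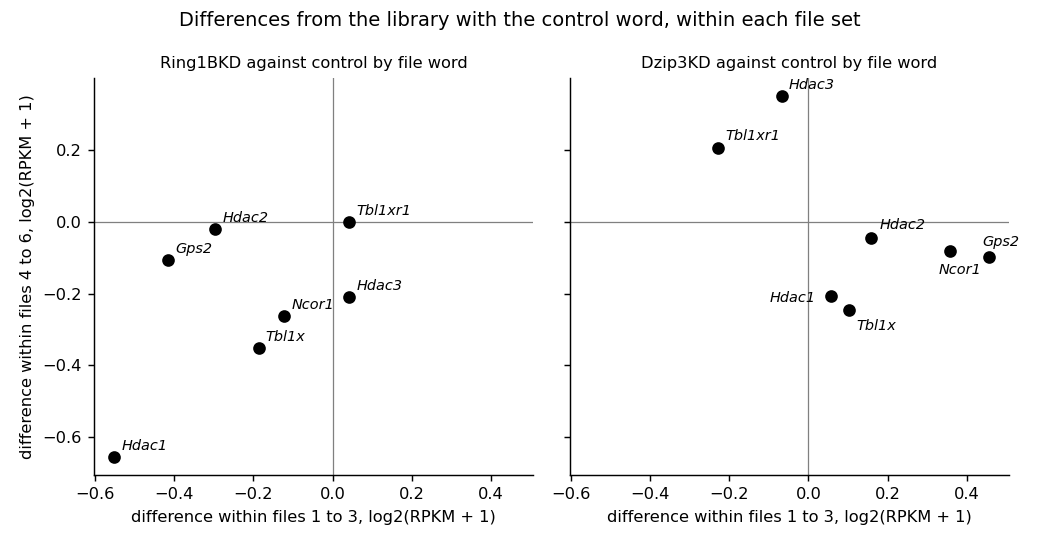
Difference from the library with the control word within file set 1 (x axis) and file set 2 (y axis), log2(RPKM + 1), for each member, in Ring1BKD (left) and Dzip3KD (right). In Ring1BKD, *Hdac1* lies farthest from the origin at -0.55 and -0.65, and in Dzip3KD all 7 points fall where the signs of the 2 sets differ.

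The members were also compared between the file sets, a comparison chosen after the values were seen. In file set 2, 3 of 7 members (*Tbl1x*, *Gps2* and *Hdac2*) were below all libraries of set 1, against 15.5% of all tested genes, and 1 (*Tbl1xr1*) was above, against 13.1%. Limma called 0 of 7 after adjustment (7.62% of all genes) and 4 before it (26.5%). *Tbl1x* averaged 8.77 ± 0.98 RPKM in set 1 and 6.21 ± 0.92 RPKM in set 2 (SD, n = 3 each), and *Tbl1xr1* 4.35 ± 0.52 RPKM and 6.35 ± 0.62 RPKM. These differences were -0.44 (SE 0.13; limma adjusted p = 0.0860) and 0.46 (SE 0.15; limma adjusted p = 0.106). Both libraries labelled control are in set 1 and both labelled Dzip3-KD in set 2, and only Ring1B-KD has a library in each. With file set as a block, which rests on those 2 Ring1B-KD libraries, the Dzip3-KD difference by label was -0.10 for *Tbl1x* and -0.15 for *Tbl1xr1* (limma, adjusted p = 0.978 and 0.964).

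The paralogs *Tbl1x* and *Tbl1xr1* are described by their ratio and sum, a pair and a split chosen after the values were seen, so the values are a description and no test. The ratio of *Tbl1x* to *Tbl1xr1* (RPKM) was 1.95, 1.63 and 2.57 in file set 1 (control 1, control 2 and Ring1B-KD 1 by label), and 1.21, 0.910 and 0.840 in file set 2 (Ring1B-KD 2, Dzip3-KD 1 and Dzip3-KD 2). Ratios in the sets did not overlap, with geometric means of 2.02 and 0.973 (log2 difference 1.05). The sum of both was 11.4 to 13.5 RPKM, a highest to lowest ratio of 1.18. Ratio and sum depend on the exon lengths, recovered as 2302 bp for *Tbl1x* and 8127 bp for *Tbl1xr1*. That of *Tbl1x* equals no annotated transcript. In bulk RNA, fewer cells of a type and less RNA per cell cannot be told apart.

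**Figure D5:**
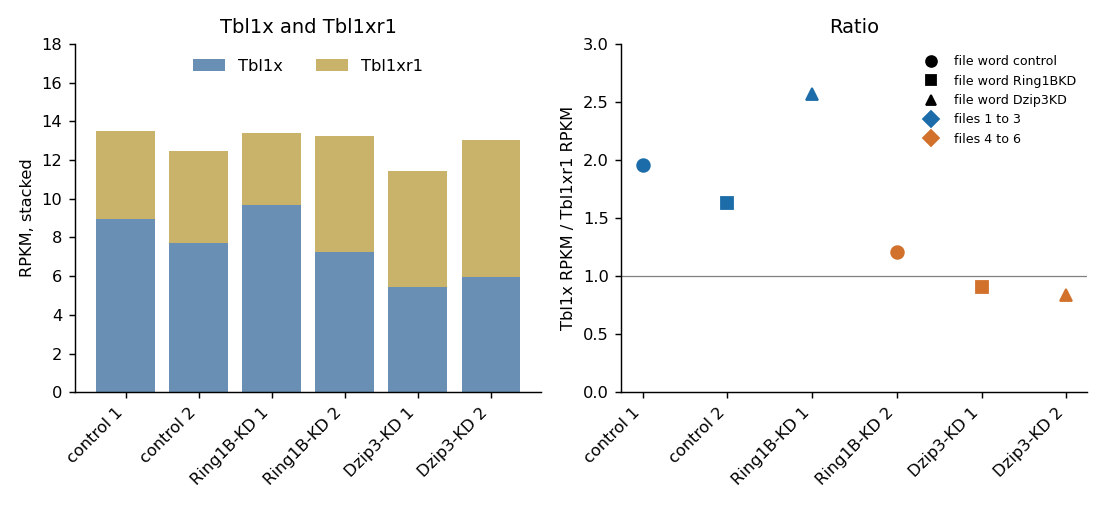
Left, stacked bars of the RPKM of *Tbl1x* and *Tbl1xr1* in each library, named by label. Right, the ratio of *Tbl1x* to *Tbl1xr1*, with the shape for the file word, the colour for the file set and a line at equal levels. The ratio is 1.63 to 2.57 in file set 1 and 0.840 to 1.21 in file set 2, while the height of the bars stays between 11.4 and 13.5 RPKM.

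One library carried many of the extremes. The library labelled Ring1B-KD 1 (word Dzip3KD) was the highest of the 6 for 5 of 7 members (*Ncor1*, *Tbl1x*, *Gps2*, *Hdac1* and *Hdac2*), against 19.3% of all tested genes, and the lowest for the other two, *Hdac3* and *Tbl1xr1*, against 20.4%. Leaving it out turned the Ring1B-KD difference by label from 0.01 to -0.18 for *Tbl1x*, from 0.22 to -0.22 for *Gps2* and from 0.07 to -0.16 for *Hdac2*. Without the library labelled control 2, it was -0.08 for *Tbl1x*, -0.05 for *Hdac1* and -0.08 for *Hdac2*.

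Genes whose pattern over the 6 libraries was most like that of *Ncor1*, by the root mean square difference of centred log2(RPKM + 1) values among 3066 genes of at least 10 RPKM, were *Ranbp1* (0.043), *Hnrnpa2b1* (0.046) and *Phf3* (0.047), where the median gene stood at 0.245. *Hnrnpa2b1* encodes an RNA-binding protein and *Ranbp1* a regulator of the Ran GTPase. For *Hdac3* they were *C330021F23Rik* (0.042), *Lsm3* (0.062) and *Slc39a7* (0.068), with a median of 0.272. Few libraries and many genes make close matches easy to find.

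Related genes were examined in 5 lists, and 0 genes of any list passed limma's adjusted threshold in any of the 4 comparisons. Between the file sets, a comparison chosen after the values were seen, *Rbbp7* and *Ncoa6* passed it, where 7.62% of all tested genes did. Among other genes of NCoR complexes, *Kdm4a*, a histone demethylase, was the highest at 10.03 ± 1.93 RPKM (SD, n = 6) and its 2 lowest values were those of Dzip3-KD by label (-0.55, SE 0.18; limma adjusted p = 0.320). *Zbtb33*, which encodes the methyl-DNA binding repressor Kaiso, averaged 3.51 ± 0.55 RPKM (SD, n = 6). *Coro2a* was at 0 to 0.138 RPKM, under the filter, so 3 of 4 genes were tested.

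Receptors and repressors that recruit NCoR were tested for 22 of 30 genes. *Tgif1*, a homeodomain repressor, was the highest at 39.5 ± 3.85 RPKM (SD, n = 6). *Nr0b1*, an orphan receptor expressed in ES cells, was at 36.4 and 28.4 RPKM in control, 29.7 and 28.7 RPKM in Ring1B-KD, and 21.5 and 15.9 RPKM in Dzip3-KD by label, with differences of -0.77 in Dzip3-KD by label and -0.55 in Dzip3KD by file word (limma, adjusted p = 0.302 and 0.754). By file word in Ring1BKD, *Rxra*, the common partner of many receptors, gave 0.58, and *Nr1h2*, *Nr1d2* and *Ppard* gave -0.43, -0.52 and -0.48. By label, unadjusted calls were 0 for Ring1B-KD (5.1% of all genes) and 1 lower for Dzip3-KD (12.2%). By file word they were 1 higher and 3 lower for Ring1BKD (8.31%) and 1 lower for Dzip3KD (6.52%).

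Other histone deacetylases (13 of 15 tested) held *Sirt1* as the highest gene, at 14.6 ± 2.33 RPKM (SD, n = 6). By label, unadjusted calls were *Sirt1* (-0.42) in Dzip3-KD (12.2% of all genes) and 0 in Ring1B-KD (5.1%). By file word they were *Sirt7* (-0.63) and *Hdac11* (-0.71) in Ring1BKD (8.31%), and *Sirt6* (0.39) in Dzip3KD (6.52%). Partners of Hdac1 and Hdac2 in the Sin3, NuRD, CoREST and MiDAC complexes (40 of 42 tested) were led by the histone chaperone gene *Rbbp7* at 35.0 ± 10.2 RPKM (SD, n = 6). *Rbbp7* averaged 43.9 ± 3.66 RPKM in file set 1 and 26.0 ± 2.63 RPKM in file set 2 (SD, n = 3 each). That difference was -0.74 (SE 0.12, limma adjusted p = 0.0142). *Sap30l* (0.71), *Mta1* (0.61) and *Cdk2ap1* (0.51) were unadjusted calls in Ring1B-KD by label (5.1% of all genes). In Dzip3-KD by label (12.2%) they were *Cdk2ap1* (0.58), *Mta2* (-0.51) and *Zmym3* (-0.51). By file word they were *Sap18* (0.48) in Ring1BKD (8.31%) and *Cdk2ap1* (0.42) in Dzip3KD (6.52%). *Cdk2ap1*, a NuRD subunit, was at 11.9 and 12.6 RPKM in control and at 16.4 to 21.7 RPKM in the other 4 libraries.

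Coactivators, which replace the NCoR complex on liganded receptors, were tested for 13 of 13 genes. *Ncoa3* was the highest at 21.3 ± 1.97 RPKM (SD, n = 6). The 1 unadjusted call was *Ncoa6* in Dzip3-KD by label (-0.76, limma adjusted p = 0.375), where 12.2% of all genes were such calls. *Ncoa6* averaged 10.4 ± 1.60 RPKM in file set 1 and 5.41 ± 0.48 RPKM in file set 2 (SD, n = 3 each). That difference was -0.82 (SE 0.13, limma adjusted p = 0.0160), and the library labelled Ring1B-KD 2 was at 5.86 RPKM.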

How the data were processed

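The deposited values are RPKM calculated by the authors, 1 list per library without pooling. According to their methods, reads of stranded mRNA libraries from a MiSeq were aligned to mm9 with the Illumina pipeline, and only reads unique to a gene entered. RPKM does not correct for RNA composition. The gene annotation was not given in the sources used here. A total of 457 values above 0 lay below 0.001 RPKM, under the worth of 1 read.

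Whole reads were recovered for 15561 genes (93.4%) from the steps between low values (within 0.02 reads of a whole number, exon lengths of 100 to 20000 bp, depth set by matching GENCODE M1 lengths). The recovered length equalled an annotated transcript for 19.9% of genes. Among 2000 genes drawn at random it was possible for 93.5%, and for 10.5% after noise of 5% was added. Depth was 3015350 to 3583613 mapped reads per library, of which 964753 to 1142786 were recovered in listed genes.

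Groups came from the sample labels. Limma 3.58.1 (R 4.3.3) was fitted on log2(RPKM + 1), which understates the change of low genes, to 11538 genes averaging 0.5 RPKM or more, with a variance trend, Benjamini-Hochberg adjustment over all genes and a threshold of 0.05. Libraries were grouped by label without covariate, or by file word with file set as a block. The one-way analysis of the study has no moderation, and such a fit was an alternative. The members and lists were chosen with earlier results of these data known. All members and both targeted genes are named. So are the other genes of NCoR complexes, except 1 that is not reported here, and, in other lists, the highest gene and up to 3 genes per comparison with an unadjusted p under 0.05. Transcripts were compared with mm9 by BLAST 2.17.0. The code was tested on simulated reads. Alternatives covered the pseudocount, filter, scaling, block, test and each library left out.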

Additional observations from a re-analysis of the deposited data

How the results depend on the processing

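Of 434 values of members under alternatives, 396 kept their direction and 38 turned it, and 0 passed or lost the threshold. A change of the filter or the moderation cannot move a difference, so such alternatives kept the direction in advance. By label, the same holds for both replicate blocks, the fit on 4 libraries and leaving out a library of the group not compared. By file word, it holds for the fit without the file set block and for leaving out a library of the word not compared. The 396 values include all of these. Of the 28 member results, 6 were never reversed. In the fits by label with a file set block, the set effect rests on the libraries labelled Ring1B-KD alone. By label, a fit with file set as a block gave -0.088 for *Hdac3* and -0.25 for *Tbl1xr1* in Ring1B-KD, and 0.25 for *Ncor1*, -0.018 for *Hdac3*, -0.15 for *Tbl1xr1*, 0.56 for *Gps2* and 0.27 for *Hdac2* in Dzip3-KD, where *Tbl1x* kept its direction at -0.10. For Ring1BKD by file word, *Hdac3* was 0.0024 after 75th percentile scaling and 0.00054 after quantile normalization. For Dzip3KD by file word, *Tbl1xr1* was 0.016, 0.037 and 0.0054 under those scalings and voom on recovered reads. Leaving out 1 library at a time, differences in Ring1B-KD by label ranged from -0.088 to 0.13 for *Hdac3*, -0.18 to 0.20 for *Tbl1x*, -0.25 to 0.31 for *Tbl1xr1*, -0.22 to 0.66 for *Gps2*, -0.045 to 0.51 for *Hdac1* and -0.16 to 0.31 for *Hdac2*, and in Dzip3-KD by label from -0.083 to 0.48 for *Hdac3*. In Ring1BKD by file word they ranged from -0.31 to 0.15 for *Hdac3*, -0.11 to 0.15 for *Tbl1xr1*, -0.55 to 0.032 for *Gps2* and -0.35 to 0.030 for *Hdac2*. In Dzip3KD by file word they ranged from -0.046 to 0.32 for *Ncor1*, -0.13 to 0.41 for *Hdac3*, -0.20 to 0.061 for *Tbl1x*, -0.24 to 0.22 for *Tbl1xr1*, -0.17 to 0.53 for *Gps2*, -0.18 to 0.031 for *Hdac1* and -0.11 to 0.23 for *Hdac2*. A library left out leaves 1 in its group, assumed to vary like the others. Over all genes, Ring1B-KD by label gave 0 calls throughout. Dzip3-KD by label gave 0, but 24 with the 4 libraries of its 2 groups and 0 to 27 leaving out 1 library (25 and 27 without Ring1B-KD 1 and 2). Ring1BKD by file word gave 48, but 21 with a pseudocount of 0.1, 0 without the filter, without moderation or without the file set block, 81 with voom, and 3 to 61 leaving out 1 library (3 without the library labelled Dzip3-KD 1). Dzip3KD by file word gave 0, but 1 with voom and 0 to 4 leaving out 1 library (4 without Ring1B-KD 2 and 1 without Dzip3-KD 2). The cause was not tested. With the replicate block, the count was 0 for Ring1B-KD and 1 for Dzip3-KD by label. Deviations of same-numbered libraries correlated at -0.036, -0.242 and 0.044. The replicates of each label also differ in file word, and those of Ring1B-KD in file set, so these values cannot decide whether the numbers pair the samples. A crossed replicate block, chosen after seeing the data, gave 0 calls in both. By the median over libraries or without the library labelled Ring1B-KD 1, *Gps2* ranked 6, *Hdac3* 4 and *Tbl1xr1* 5. *Gps2*, *Hdac1*, *Hdac3* and *Tbl1x* rest on 19 to 75 reads a library. The variance of *Ncor1*, *Tbl1xr1* and *Hdac2* was 18.2, 7.57 and 6.70 times that of counting, so depth alone does not set their precision.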
